A study of Mus musculus with 6 samples.

Results

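The Hox genes described here are the 24 genes of the HoxA, HoxB, HoxC and HoxD clusters whose symbol is Hox followed by a cluster letter and a number, out of 30733 gene symbols measured. They comprise 9 HoxA, 9 HoxB, 5 HoxC and 1 HoxD gene, and were taken by name, with no use of their values. The GRCm38 annotation lists 39 such genes, and the other 15 had no values among these symbols and were not analysed here. Of 9 annotated HoxD genes only 1 had values, and of 9 HoxC genes 5. RNA came from cells labelled as hematopoietic stem cells (HSCs), which were obtained from bone marrow of wild-type (WT) mice at an age of 12 months. They were split by surface MHC class II into a high fraction (MHCII-hi, 3 libraries) and a low fraction (MHCII-lo, 3 libraries). All groups share genotype, tissue and age. Neither the sorting gates nor the origin of the 3 libraries of a fraction (separate animals or not) is stated in the labels. The p-values therefore reflect the spread among these libraries alone, and that spread may be technical.

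Hox genes encode homeodomain transcription factors that set position along the body axis in the embryo, and they lie in 4 clusters in which gene order follows paralog number. Blood cells reuse part of the set: genes in the middle and 5′ portion of HoxA and a few HoxB genes are active in stem cells and early progenitors and are shut down as blood cells mature. Hox proteins bind DNA together with homeodomain partners of the TALE class (Pbx, Meis and Pknox proteins). Trithorax complexes built around the MLL protein keep the clusters active, and Polycomb complexes silence them.

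Values are in FPKM (a level per transcript length and per amount sequenced), a unit inferred from the values because no header names it. The number of reads is unknown, so a gene listed at 0 is not shown to be absent. The number of genes at 1 FPKM or more ran from 11978 to 12054 by library. The labels were set beside marker genes. The stem cell markers Procr, Slamf1, Mecom and Fgd5 stayed under 1 FPKM in all 6 libraries, with a highest value of 0.79 FPKM, while Kit stood at 14.3 ± 0.175 FPKM in MHCII-lo and 13.9 ± 0.318 FPKM in MHCII-hi. Neutrophil markers, 20 of 20, were called higher in the MHCII-hi fraction. Their share of summed FPKM was 16.1 to 16.2% there and 2.91 to 2.94% in the MHCII-lo fraction, and none was at 0. Of 9 tested monocyte and dendritic cell markers, all were lower in MHCII-hi. Their share of summed FPKM was 0.146 to 0.154% there, against 0.259 to 0.264% in the other fraction. The 10 erythroid and megakaryocyte markers split into 7 lower, 2 higher and 1 not called in the MHCII-hi fraction, and Klf1, an erythroid transcription factor, fell from 10.1 ± 0.674 to 4.17 ± 0.294 FPKM. Their share went from between 0.0729 and 0.0746% in MHCII-lo to between 0.0551 and 0.0566% in MHCII-hi. Of 9 tested B and plasma cell markers, 5 were higher and 0 lower by limma (5 at an unadjusted p under 0.05, all higher), and Ighm, the IgM heavy chain, rose from 107 ± 2.61 to 349 ± 4.21 FPKM. The share of this list lay between 1.24 and 1.25% in MHCII-lo and between 1.26 and 1.27% in MHCII-hi. Of the 6 stem cell markers tested, 3 were higher and 1 lower, and of 2 stromal markers 1 was lower. Beside these counts, 20.4% of all 12037 tested genes were called higher in MHCII-hi and 40.6% lower. The part of these other cell types in the Hox values below was not tested. In bulk libraries, fewer cells of a type cannot be told apart from less RNA per cell.

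Hox transcripts were low in both fractions, and those measured came almost wholly from HoxA and HoxB. In MHCII-lo 3 Hox genes had a mean above 1 FPKM, and in MHCII-hi also 3. They were Hoxa7, Hoxa9 and Hoxb4 in each case. Another 16 genes lay under 1 FPKM in both fractions but above 0 in at least 1 library, and 5 genes (Hoxb1, Hoxb9, Hoxb13, Hoxc5 and Hoxc10) were listed at 0 in all 6. Above 0 in every library were 10 genes, of which 7 belong to HoxA and 3 to HoxB. The 6 genes of HoxC and HoxD never exceeded 0.08 FPKM.

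**Figure D1:**
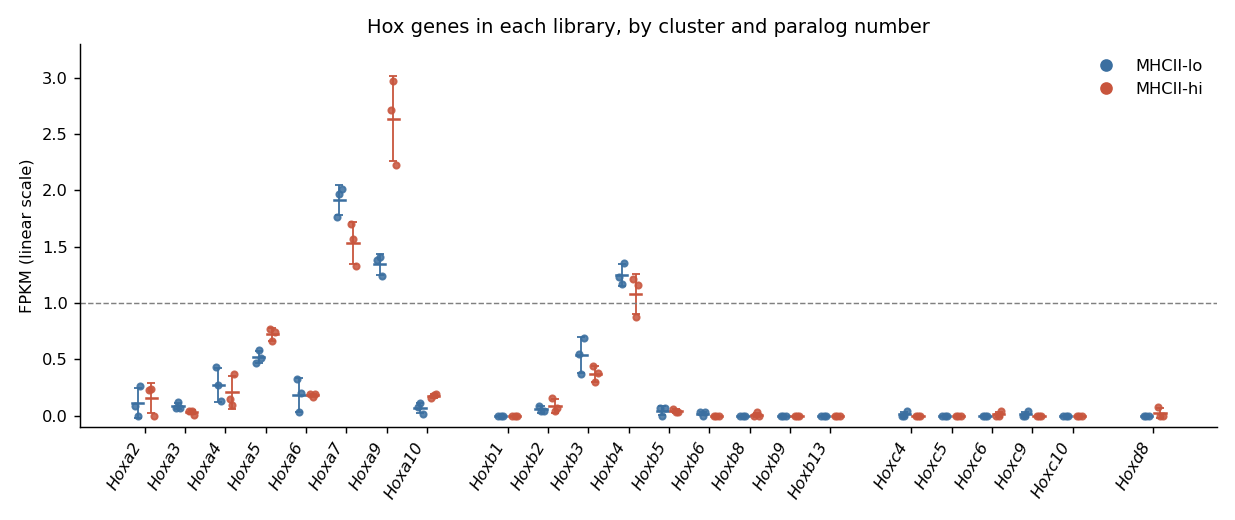
FPKM (linear axis) of Hox genes in each library, ordered by cluster and paralog number, with points for the 3 libraries of a fraction, a horizontal bar for their mean and whiskers for the SD. Hoxa7, Hoxa9 and Hoxb4 are the genes whose mean passes the dashed line at 1 FPKM, and HoxC and HoxD genes stay at or under 0.08 FPKM.

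The 3 genes above 1 FPKM are shown with their start regions, because they are the Hox genes above 1 FPKM and because Hoxa7 and Hoxa9, neighbours in HoxA, differed in the direction of their values. Each sequence runs 5′ to 3′ on the strand of the gene, from 250 bases before to 50 bases after the RefSeq start (GRCm38.p6), and capitals mark CG dinucleotides, the sites of DNA methylation in mammals. Hoxa9 lies on chromosome 6, 52223100 to 52231089, minus strand, and its window is chr6:52227321-52227620. Its gene span reaches beyond the RefSeq start, so the window covers only 1 start. Hoxa7 lies on chromosome 6, 52214491 to 52221854, minus strand, with the window chr6:52218524-52218823, and its RefSeq start is 8797 bases from that of Hoxa9. The Hoxa7 span likewise reaches beyond its RefSeq start, so that window too covers only 1 start. Hoxb4 lies on chromosome 11, 96318267 to 96321638, plus strand, with the window chr11:96318017-96318316.
Hoxa9: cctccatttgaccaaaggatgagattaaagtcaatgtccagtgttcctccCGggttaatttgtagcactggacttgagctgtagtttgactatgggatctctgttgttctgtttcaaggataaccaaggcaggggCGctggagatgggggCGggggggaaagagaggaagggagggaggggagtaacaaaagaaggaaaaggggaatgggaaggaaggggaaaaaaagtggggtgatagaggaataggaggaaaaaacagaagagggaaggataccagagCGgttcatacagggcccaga
Hoxa7: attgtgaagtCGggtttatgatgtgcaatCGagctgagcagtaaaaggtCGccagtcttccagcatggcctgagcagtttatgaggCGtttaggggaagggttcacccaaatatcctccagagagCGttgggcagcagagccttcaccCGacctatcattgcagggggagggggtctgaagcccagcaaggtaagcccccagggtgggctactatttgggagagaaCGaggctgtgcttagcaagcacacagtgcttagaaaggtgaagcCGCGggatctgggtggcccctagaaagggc
Hoxb4: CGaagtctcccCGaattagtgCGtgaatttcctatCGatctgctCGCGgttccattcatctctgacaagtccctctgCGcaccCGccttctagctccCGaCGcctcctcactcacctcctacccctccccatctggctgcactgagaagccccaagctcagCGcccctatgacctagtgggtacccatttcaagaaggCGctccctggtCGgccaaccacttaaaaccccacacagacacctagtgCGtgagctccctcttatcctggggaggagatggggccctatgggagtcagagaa
The Hoxa9 window holds 4 CG dinucleotides, the Hoxa7 window 9 and the Hoxb4 window 14, against a median of 7 over 32851 RefSeq start windows of the same length. GC content was 49.7% for Hoxa9, 55.7% for Hoxa7 and 58.0% for Hoxb4 (median of all windows 52.7%). None of the 3 windows holds TATAAA (the core of the TATA box, in 13.6% of all windows), CCAAT (in 37.4%), TGATNNAT (a site form of Hox and Pbx pairs, in 8.85%) or TGACAG (the Meis site, in 19.2%), on either strand. These counts describe the letters of the windows only.

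Hoxa9, a HoxA gene of stem and progenitor cells and a driver of myeloid leukaemia when overexpressed, was higher in MHCII-hi, at 1.96 times the MHCII-lo mean. It read 1.38, 1.41 and 1.24 FPKM in the 3 MHCII-lo libraries and 2.71, 2.97 and 2.23 FPKM in the 3 MHCII-hi libraries. Every MHCII-hi library lay above every MHCII-lo library. The means were 1.34 ± 0.0907 and 2.64 ± 0.375 FPKM (SD, n = 3 each). On the scale of log2(FPKM + 1) the change of a low gene comes out too small, and there the difference was 0.63 (SE 0.0924, 95% interval 0.41 to 0.85, limma adjusted p 0.00104). Hoxa9 passed 63.2% of all measured genes in mean level in MHCII-lo and 69.7% in MHCII-hi. It was the single Hox gene called among the 3 that met the expression limit for testing (mean FPKM of 1 or more across libraries). Of all 12037 genes tested, 60.9% were called, 20.4% as higher and 40.6% as lower, so a call as such is common in this comparison. No Hox gene was called lower by limma, although 2 of the 3 (Hoxa9 and Hoxa7) had an unadjusted p under 0.05, as did 65.2% of all tested genes. The same 2 had fractions that did not overlap, as did 67.6% of all tested genes. The median tested gene had a log2 difference of −0.12, and relative to it the Hoxa9 difference was 0.75. After median-ratio scaling, which moves the median gene to −0.01, the Hoxa9 difference was 0.71.

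Hoxa7, the next HoxA gene towards the 3′ end of the cluster and also known from blood progenitors, had values in the other direction. It read 1.76, 1.97 and 2.01 FPKM in MHCII-lo and 1.70, 1.57 and 1.33 FPKM in MHCII-hi, so the fractions did not overlap but came within 0.06 FPKM of each other. The means were 1.91 ± 0.134 and 1.53 ± 0.188 FPKM. The log2 difference of −0.20 (SE 0.0833, 95% interval −0.40 to −0.01) did not pass the limma test (adjusted p 0.0709). Its size relative to the median gene was −0.08 on this scale. With 0.1 FPKM added in place of 1, Hoxa7 was at −0.31 and the median gene at −0.14. With 5 FPKM added they were at −0.08 and −0.07, and after median-ratio scaling at −0.12 and −0.01.

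Hoxb4, known for expanding stem cells when overexpressed, was the most abundant HoxB gene. It read 1.23, 1.17 and 1.36 FPKM in MHCII-lo and 1.21, 0.88 and 1.16 FPKM in MHCII-hi, and the fractions overlapped. The means were 1.25 ± 0.0971 and 1.08 ± 0.178 FPKM, with a log2 difference of −0.12 (95% interval −0.34 to 0.11, limma adjusted p 0.324). That value equals the shift of the median gene to 2 decimals, but only on this scale. With 0.1 FPKM added in place of 1, Hoxb4 was at −0.20 and the median gene at −0.14. With 5 FPKM added they were at −0.04 and −0.07, and after median-ratio scaling at −0.05 and −0.01.

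The order of the leading genes differed between the fractions. In MHCII-lo, Hoxa7 came first, clear of Hoxa9 in every library, and Hoxa9 and Hoxb4 overlapped. In MHCII-hi, Hoxa9 came first and its libraries did not overlap with those of Hoxa7, and Hoxa7 in turn stood above Hoxb4 without overlap. The ratio of Hoxa9 to Hoxa7 within a library does not depend on library scaling. It was 0.784, 0.716 and 0.617 in MHCII-lo and 1.59, 1.89 and 1.68 in MHCII-hi. All MHCII-lo libraries thus had less Hoxa9 than Hoxa7, and all MHCII-hi libraries had more. The means of that ratio were 0.706 ± 0.0840 and 1.72 ± 0.154. The 2-sided exact permutation test gave p = 0.1, the smallest value that this test can give for 3 against 3 libraries, so it cannot reach 0.05 here. The same p held for the ratios of Hoxa9 to Hoxb4 (1.08 ± 0.151 and 2.51 ± 0.764), Hoxa5 (2.60 ± 0.292 and 3.68 ± 0.756) and Hoxb3 (2.71 ± 1.02 and 7.31 ± 2.25). The Benjamini-Hochberg adjusted value over these 4 ratios, which share Hoxa9, was also 0.1 in each exact permutation test.

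**Figure D2:**
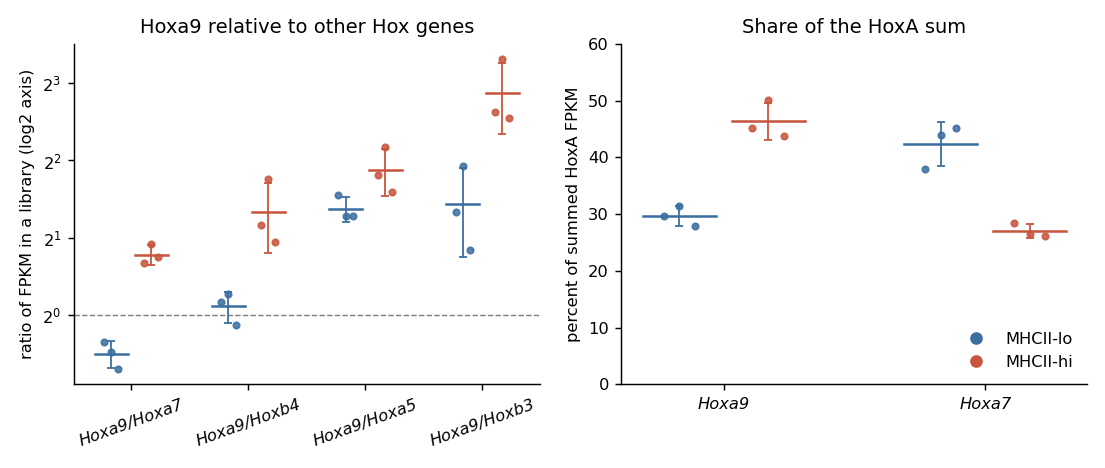
Left, the ratio of Hoxa9 FPKM to that of 4 other Hox genes in each library (log2 axis, dashed line at a ratio of 1); right, the percent of summed HoxA FPKM from Hoxa9 and from Hoxa7. Points are libraries, bars means and whiskers SD; the Hoxa9 to Hoxa7 ratio lies under 1 in MHCII-lo and above 1 in MHCII-hi, and the Hoxa9 share goes from 29.7% to 46.4%.

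The other HoxA genes stayed under 1 FPKM and were not tested with the limit above. Hoxa5, a regulator of blood lineage choice in cultured progenitors, read 0.47, 0.58 and 0.51 FPKM in MHCII-lo and 0.77, 0.66 and 0.74 FPKM in MHCII-hi. These values did not overlap between the fractions, and the means were 0.520 ± 0.0557 and 0.723 ± 0.0569 FPKM. With the limit lowered to a mean of 0.1 FPKM, where 43.6% of 18131 genes were called (15.6% higher and 28% lower), the Hoxa5 difference of 0.18 did not pass the test (limma adjusted p 0.0769). Hoxa10, which lies next to Hoxa9 on the 5′ side and acts in early progenitors, read 0.08, 0.11 and 0.02 FPKM in MHCII-lo and 0.16, 0.18 and 0.19 FPKM in MHCII-hi. The 2 sets of Hoxa10 values did not overlap. Its difference of 0.14 had an adjusted p of 0.144 at a limit of 0.1 FPKM and 0.0461 with no limit, where limma called 27.4% of 26858 genes (10.3% higher and 17.1% lower). Hoxa10 is therefore called only in the fit with no limit. At that level the values are a small number of hundredths of an FPKM, and the tables hold 2 decimals.

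Hoxa4 and Hoxa6 had wide spreads. Hoxa4 read 0.43, 0.27 and 0.13 FPKM in MHCII-lo and 0.15, 0.10 and 0.37 FPKM in MHCII-hi, with overlapping fractions (adjusted p 0.634 at a limit of 0.1 FPKM). Hoxa6 had means of 0.187 ± 0.150 and 0.183 ± 0.0115 FPKM, and Hoxa2 of 0.117 ± 0.132 and 0.157 ± 0.136 FPKM. Hoxa3 was higher in each MHCII-lo library (0.07, 0.12 and 0.07 FPKM) than in any MHCII-hi library (0.04, 0.04 and 0.01 FPKM), with an adjusted p of 0.108 with no limit. In the annotation the Hoxa3 span covers Hoxa4, Hoxa5 and Hoxa6 on the same strand, and the antisense gene Hoxaas3 overlaps Hoxa3 to Hoxa7. The library kit keeps strand, but whether the counting used it is not stated, so the split among these genes is uncertain. Hoxa9 overlaps Mir196b, a microRNA gene on its strand that was listed at no more than 0.01 FPKM.

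Summed over its 9 genes, HoxA gave 4.64, 4.49 and 4.44 FPKM in MHCII-lo and 5.99, 5.93 and 5.09 FPKM in MHCII-hi. Every MHCII-hi sum was above every MHCII-lo sum, at a ratio of means of 1.25. The mean sum went from 4.52 to 5.67 FPKM, a smaller rise than that of the Hoxa9 mean (1.34 to 2.64 FPKM). In these unscaled values the mean sum of the remaining HoxA genes was therefore not higher in MHCII-hi. Hoxa9 accounted for 29.7 ± 1.74% of the HoxA sum in MHCII-lo and 46.4 ± 3.29% in MHCII-hi, while the share of Hoxa7 was 42.4 ± 3.90% and 27.0 ± 1.21%. Read along the cluster, levels were at or under 0.277 FPKM on average up to Hoxa4, higher at Hoxa5, highest at Hoxa7 and Hoxa9, and low again at Hoxa10. Hoxa6 broke this course in both fractions.

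In HoxB, transcripts were found around Hoxb4 and Hoxb3 and hardly elsewhere. Hoxb3, which borders Hoxb4 on the 3′ side, read 0.55, 0.37 and 0.69 FPKM in MHCII-lo and 0.44, 0.30 and 0.38 FPKM in MHCII-hi. The Hoxb3 libraries overlapped (means 0.537 ± 0.160 and 0.373 ± 0.0702 FPKM, adjusted p 0.238 at a limit of 0.1 FPKM). Hoxb2 had means of 0.0567 ± 0.0289 and 0.0900 ± 0.0625 FPKM. Hoxb5, used elsewhere as a reporter of long-term HSCs, read 0.07, 0.00 and 0.07 FPKM in MHCII-lo and 0.06, 0.03 and 0.03 FPKM in MHCII-hi. Hoxb6 and Hoxb8 were above 0 in 2 and 1 of the 6 libraries, at 0.03 FPKM. The HoxB sum was 1.97, 1.58 and 2.19 FPKM in MHCII-lo and 1.87, 1.28 and 1.64 FPKM in MHCII-hi, with overlapping fractions. Among the 9 HoxA and HoxB genes averaging 0.1 FPKM or more, 4 (Hoxa5, Hoxa7, Hoxa9 and Hoxa10) had fractions that did not overlap, against 54.5% of all 18131 genes at that limit. All 4 are HoxA genes, but so are most of the 9, since only Hoxb3 and Hoxb4 among them belong to HoxB.

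By paralog number, group 9 had the highest sum in MHCII-hi (2.64 ± 0.375 FPKM, against 1.36 ± 0.0681 FPKM in MHCII-lo) and came from Hoxa9, since Hoxb9 was at 0 and Hoxc9 at no more than 0.04 FPKM. Group 7, with Hoxa7 as its only measured gene, had the highest sum in MHCII-lo. Group 4 (Hoxa4, Hoxb4 and Hoxc4) summed to 1.54 ± 0.111 FPKM in MHCII-lo and 1.29 ± 0.282 FPKM in MHCII-hi. Group 5 (Hoxa5, Hoxb5 and Hoxc5) summed to 0.567 ± 0.0231 and 0.763 ± 0.0702 FPKM. The sums of group 3 were 0.623 ± 0.135 and 0.403 ± 0.0709 FPKM. Groups 8, 10 and 13 did not reach 0.2 FPKM in either fraction.

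The genes at the borders of the clusters differed widely in level, and some were at or near 0. Skap2, an adaptor protein gene beyond the 3′ end of HoxA, read 15.06, 14.28 and 15.08 FPKM in MHCII-lo and 20, 20.26 and 19.78 FPKM in MHCII-hi (log2 difference 0.41, limma adjusted p 6.03e-05), well above any Hox gene. Evx1, the homeobox gene beyond the 5′ end of HoxA, was listed at 0 in all 6 libraries. Evx2, beside HoxD, did not exceed 0.03 FPKM, and Smug1, beside HoxC, had means of 0.440 ± 0.144 and 0.353 ± 0.0416 FPKM. Skap1, beside HoxB, had means of 0.837 ± 0.0666 and 0.587 ± 0.0404 FPKM. Calcoco1 beside HoxC (3.16 ± 0.435 and 3.28 ± 0.0462 FPKM) and Mtx2 beside HoxD (8.0 ± 0.0252 and 7.02 ± 0.644 FPKM) lie next to clusters whose measured Hox genes stayed at or under 0.08 FPKM, and neither passed the limma test (adjusted p 0.668 and 0.0522). Of 18 noncoding genes with values inside the clusters, only Gm11539, a processed pseudogene in HoxB whose reads could come from its parent gene, reached 1 FPKM in any library. The others, among them the antisense RNAs Hotairm1, Hoxaas3 and Hoxb5os, did not exceed 0.53 FPKM. Hotairm1, an antisense RNA at the 3′ end of HoxA, had means of 0.300 ± 0.154 and 0.127 ± 0.142 FPKM with overlapping fractions.

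Among the TALE genes, Pbx2 and Meis1 were higher in MHCII-hi and Tgif1 and Tgif2 were lower. Pbx2, which encodes a direct DNA-binding partner of Hox proteins, read 13.81, 12.42 and 13.19 FPKM in MHCII-lo and 18.63, 18.62 and 19.3 FPKM in MHCII-hi. The fractions did not overlap (log2 difference 0.49, SE 0.0439, limma adjusted p 9.32e-05). The means of Pbx2 were 13.1 ± 0.696 and 18.9 ± 0.390 FPKM. Meis1, which acts with Hoxa9 in leukaemia and was named here after its values were seen, rose from 1.42 ± 0.0529 to 1.94 ± 0.187 FPKM (adjusted p 0.0163). That call was lost without MHCII-hi replicate 3 (0.0554) and with no limit on low values (0.0502). The genes of the TGIF repressors, which are also TALE proteins, fell: Tgif1 from 9.31 ± 0.891 to 5.28 ± 0.348 FPKM and Tgif2 from 2.76 ± 0.224 to 0.907 ± 0.408 FPKM. Of the 7 TALE genes tested, 3 were higher, 2 lower and 2 not called, also under median-ratio scaling and quantile normalization. Among all tested genes 20.4% were higher and 40.6% lower. Of all 12037 genes 3392 were higher and 3123 lower after median-ratio scaling, and 2817 and 4022 after quantile normalization. Pbx4 (1.5 ± 0.173 and 1.14 ± 0.367 FPKM) and Pknox1 (3.64 ± 0.275 and 3.85 ± 1.07 FPKM) had overlapping fractions and were not called. Pbx3 (1.02 ± 0.182 and 0.857 ± 0.0874 FPKM), Meis2, Meis3 and Pknox2 lay under the limit.

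**Figure D3:**
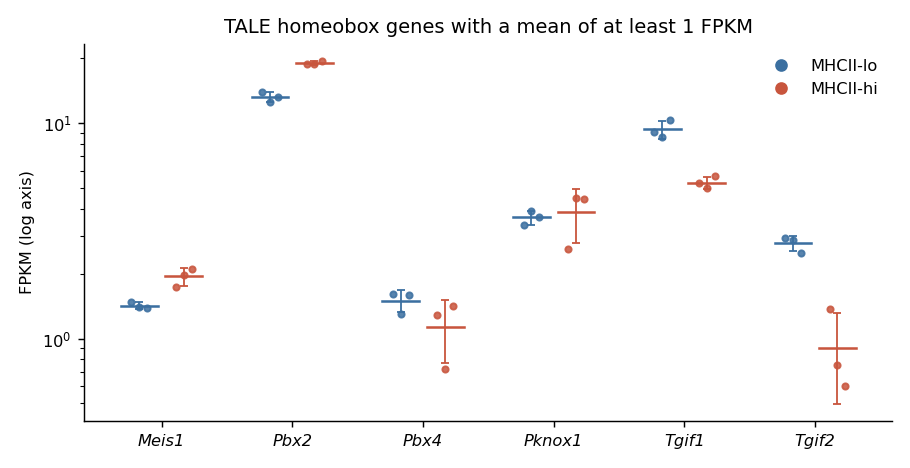
FPKM (log axis) of tested TALE homeobox genes in each library, with points for libraries, bars for means and whiskers for SD. Pbx2 and Meis1 are higher in MHCII-hi in every library, while Tgif1 and Tgif2 are lower in every library.

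Genes of the MLL and Trithorax machinery, which keeps Hox chromatin active, moved in both directions. Of 20 tested, 3 were higher and 7 lower, where 20.4% of all tested genes were higher and 40.6% lower. The list had a median log2 difference of −0.02 against −0.12 for all tested genes. After median-ratio scaling the split was 7 higher and 3 lower, against 3392 higher and 3123 lower of all 12037 genes. After quantile normalization it was 5 higher and 3 lower, against 2817 and 4022. The balance of the calls thus has no direction that holds across scalings. The list median stayed above that of all tested genes, at 0.10 against −0.01 after median-ratio scaling and 0.03 against −0.07 after quantile normalization. Kmt2a, the MLL gene itself and named after its values were seen, stood at 4.70 ± 0.145 and 5.13 ± 0.0208 FPKM (adjusted p 0.0660, or 0.00473 after median-ratio scaling). Its cofactors Men1 (9.38 ± 0.395 to 7.18 ± 0.190 FPKM) and Psip1, which encodes the chromatin tether LEDGF (25.8 ± 0.714 to 19.1 ± 0.556 FPKM), fell. Mllt3, an elongation factor subunit that maintains human HSCs, fell from 1.46 ± 0.140 to 0.827 ± 0.0808 FPKM, and Aff1, a further elongation factor subunit, rose from 16.0 ± 0.0709 to 19.2 ± 0.487 FPKM.

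Of 27 tested Polycomb genes, 14 were lower and 4 higher in MHCII-hi, against 40.6% lower and 20.4% higher among all tested genes. After median-ratio scaling 10 were lower and 5 higher, against 3123 and 3392 of all 12037 genes. The median log2 difference of the list was −0.21. Ezh2, the H3K27 methyltransferase of dividing cells, fell from 23.0 ± 0.505 to 16.0 ± 0.755 FPKM (log2 difference −0.50, limma adjusted p 6.42e-05). Rnf2, the catalytic subunit of the other Polycomb complex, fell from 15.3 ± 0.332 to 10.8 ± 0.490 FPKM. Phf1, an accessory subunit, rose from 4.72 ± 0.593 to 9.04 ± 0.263 FPKM, and Asxl1, a subunit of the H2A deubiquitinase, rose from 17.6 ± 0.687 to 22.7 ± 0.110 FPKM.

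Retinoid signalling acts upstream of Hox clusters in the embryo. Of its genes 5 could be tested (Aldh1a1, Rxrb, Rxra, Rarg and Rara), and the caudal genes of the same list were not analysed here. Of the 5, 4 were lower, with a median of −0.30, where 40.6% of all tested genes were lower and their median was −0.12. After median-ratio scaling 3 were lower and 1 higher, against 3123 and 3392 of all 12037 genes. Aldh1a1, an enzyme that makes retinoic acid, fell from 5.04 ± 0.320 to 3.20 ± 0.0651 FPKM, Rxrb from 20.7 ± 0.829 to 15.4 ± 1.51 FPKM and Rxra from 2.93 ± 0.197 to 2.19 ± 0.142 FPKM. Rarg was at 3.64 ± 0.315 and 3.04 ± 0.148 FPKM (adjusted p 0.0380). That call was lost under both other scalings (0.264 and 0.189), with a lower limit (0.0569) or none (0.0928), and without MHCII-lo replicate 1 (0.112) or 2 (0.0836) or MHCII-hi replicate 1 (0.102) or 2 (0.0891). It was also lost with the replicate number as a block (0.0825). Of 10 genes reported as Hoxa9 and Meis1 targets, 7 were lower and 2 higher, where 40.6% of all tested genes were lower and 20.4% higher. Their median was −0.28, against −0.12 for all tested genes, and after median-ratio scaling −0.15, against −0.01, with 7 lower and 3 higher. Under that scaling 3123 of all 12037 genes were lower and 3392 higher. Flt3, a receptor of multipotent progenitors and dendritic cell precursors that is also on the monocyte and dendritic cell list, fell from 12.1 ± 0.0473 to 7.64 ± 0.422 FPKM, Cd34 from 15.4 ± 0.410 to 11.6 ± 0.230 FPKM and Pim1, a survival kinase, from 95.4 ± 1.03 to 77.9 ± 0.569 FPKM. Erg, a stem cell transcription factor, rose from 8.68 ± 0.372 to 14.6 ± 0.125 FPKM.

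**Figure D4:**
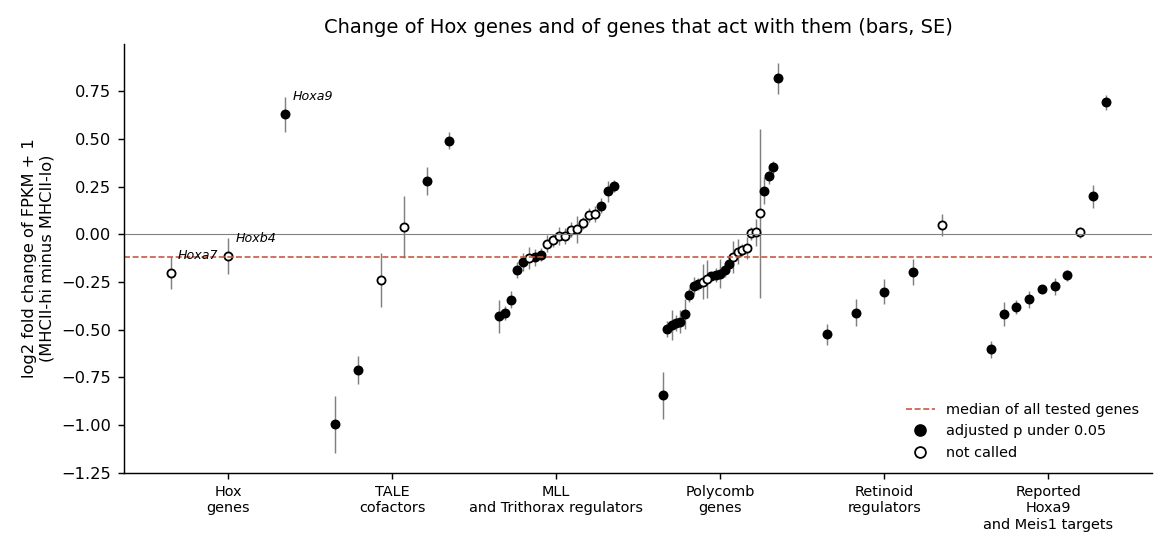
Log2 difference of FPKM + 1 (MHCII-hi minus MHCII-lo, whiskers SE) of each tested Hox gene and of tested genes in 5 lists (items not reported left out), filled where the limma adjusted p is under 0.05, with the median of all tested genes (−0.12) dashed. Hoxa9 lies at 0.63 and Hoxa7 and Hoxb4 at −0.20 and −0.12.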

How the data were processed

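Each library came as 1 table of 30803 rows, a symbol and a value. The deposited values were taken as FPKM, since they have 2 decimals and their sums are no fixed total. The submitters' processing notes name fastp, HISAT2, StringTie and GRCm38 (mm10), without versions. Of repeated symbols only the most abundant row was used (70 rows dropped, none of a Hox gene). From the deposited values log2(FPKM + 1) was computed for the 12037 genes averaging 1 FPKM or more. The fractions were compared in limma 3.58.1 (R 4.3.3), using a mean-variance trend, no covariate, and p-values adjusted over all these genes by Benjamini-Hochberg, called at 0.05. The fit was tested on simulated data. No count model was used, and depth is unknown. Sums, ratios and exact permutation tests used scipy 1.17.1, numpy 2.4.6 and pandas 2.3.3 under Python 3.11.15. Positions come from GENCODE M21 and start sequences from RefSeq, which matched 12 of the 24 Hox genes.

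The Hox genes and lists were chosen with earlier results of these data known. Named were the Hox genes averaging 1 FPKM or more over all libraries or above 1 FPKM in either fraction, those of at least 0.2 FPKM, Hoxb4 and Hoxb5, the 4 genes of each list with the smallest p, and genes flanking or inside the clusters. Further names were added after values were seen, and some items are not reported here. Alternatives were other pseudocounts, filters, scalings and variance models, a replicate block and leaving out each library.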

Additional observations from a re-analysis of the deposited data

How the results depend on the processing

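The call of Hoxa9 as higher held in all 14 alternatives (log2 difference 0.27 to 0.92, adjusted p 0.000630 to 0.00533), and Hoxb4 was called in none (adjusted p 0.209 to 0.717). Hoxa7 was called lower only without an intensity trend (adjusted p 0.0393, range over alternatives 0.0393 to 0.264), which makes 1 Hox gene lower there in place of 0. With no filter on low values, 2 Hox genes were higher, the second being Hoxa10. At a level of 0.5 FPKM in place of 1, 5 Hox genes passed in MHCII-lo and 4 in MHCII-hi. At 2 FPKM 0 passed in MHCII-lo and 1 in MHCII-hi. Above 1 FPKM in all 3 libraries of a fraction were 3 genes in MHCII-lo and 2 in MHCII-hi, where Hoxb4 read 0.88 FPKM in replicate 2. Median-ratio scaling moved the ratio of HoxA sums from 1.25 to 1.37, and the calls over all genes from 2450 higher and 4883 lower to 3392 and 3123 (52.1% of calls higher in place of 33.4%). Under that scaling Bmi1, a Polycomb gene, lost its call as lower (adjusted p 0.174).

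Samples with the same replicate number did not deviate together (correlations of −0.0533, −0.0456 and −0.0435 across genes). This check cannot exclude that the numbers pair the libraries, since paired libraries with a technical spread would not deviate together either. With the replicate block, 2305 genes were higher and 4659 lower, and 1 Hox gene (Hoxa9) was higher. FPKM carry no depth, and values of a few hundredths rest on the rounding to 2 decimals.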

Other observations

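Of 7 tested homeobox genes of blood cells outside the Hox and TALE families, 4 were higher in MHCII-hi and 1 lower, where 20.4% of all tested genes were higher and 40.6% lower. Zeb2, a zinc finger and homeodomain repressor known from dendritic cell and monocyte development, fell from 12.4 ± 0.172 to 5.72 ± 0.215 FPKM (limma adjusted p 1.63e-06). Hlx, a homeobox gene of early myeloid cells, rose from 9.60 ± 0.380 to 13.4 ± 0.278 FPKM, Hopx, a homeodomain-only protein, from 12.6 ± 0.763 to 15.3 ± 0.157 FPKM and Satb1, a chromatin organizer of lymphoid cells, from 2.63 ± 0.0551 to 3.29 ± 0.197 FPKM. Hhex stood at 9.24 ± 0.645 and 9.56 ± 0.273 FPKM and was not called (adjusted p 0.497). Adnp was uneven among MHCII-lo libraries (9.36, 12.92 and 3.37 FPKM) and was not called (adjusted p 0.0591). After median-ratio scaling 6 of the 7 were higher and 1 lower, against 3392 higher and 3123 lower of all 12037 genes.

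In a list of modifiers of Hox binding (Gmnn, Ep300, Gfi1, Bmi1, Prmt5 and Crebbp), 2 of 6 were higher and 3 lower (2 and 1 after median-ratio scaling). Bmi1, among those lower, is also counted in the Polycomb list. Of all tested genes 60.9% were called, 20.4% as higher and 40.6% as lower. After median-ratio scaling 3392 of all 12037 genes were higher and 3123 lower. Gmnn, which encodes the replication inhibitor geminin and binds Hox proteins, fell from 41.3 ± 0.140 to 33.2 ± 1.42 FPKM. Gfi1, a repressor that competes with Hoxa9 at shared sites, rose from 26.1 ± 0.378 to 32.4 ± 1.39 FPKM, and the acetyltransferase Ep300 from 10.5 ± 0.191 to 13.0 ± 0.150 FPKM.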
